A study of Rattus norvegicus with 5 samples.

Results

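Cd44, Alcam, Icam1, Vcam1, Epcam, L1cam, Ceacam1, Cd9, Cd24 and Cd47 are cell surface adhesion molecules that carcinomas are known to gain or lose. They were followed here as every array probe whose platform gene symbol is one of these 10 names, which gave 13 probes of 33849 discovery probes on the array. The genes numbered 10 of 12198 named genes. Icam1 had 3 probes, Vcam1 had 2 and the other genes had 1 each, and one further probe that the platform assigns to both Ceacam4 and Ceacam1 was not used. Each of 5 RNA samples was read on its own CodeLink array in a single colour. N1 and L2 are rat hepatocellular carcinoma cell lines with high metastatic ability, while that of C5F and C6 is low. All 4 lines were established from male F344 rats given N-nitrosomorpholine and diethylnitrosamine, with an age of 31 weeks in the labels. The normal tissue was liver, not treated, from a male SD rat aged 50 weeks, so strain, age, culture and tumour origin cannot be told apart. The 2 lines of each class serve as its replicates, each with 1 array, and liver has none.

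Adhesion molecules hold cells to each other and to the matrix, and many also pass signals to the cytoskeleton. Icam1 and Vcam1 belong to the immunoglobulin superfamily, bind integrins of leukocytes and are switched on by inflammatory cytokines through NF-kB. Ceacam1 is a self-binding molecule of the hepatocyte's bile canalicular membrane. Cd44 binds hyaluronan, Epcam joins epithelial cells and is carried in liver by bile duct and progenitor cells, and Cd47 tells phagocytes not to engulf the cell.

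Probe sequences were not used here. The 250 bases before the transcription start of 4 of the genes, from RefSeq (build GRCr8), are shown because these genes make pairs, by the disagreement of their probes or by their brightness in the lines. The motifs were chosen after the sequences were seen. Of the 10 genes, 9 had an entry in the promoter table, and L1cam is named only. Icam1 and Vcam1 are the cytokine-induced pair whose probes disagreed, and their capitals mark matches on either strand to GGNNNTTCC, a pattern of the kind NF-kB binds. Icam1 held it at 2 positions, one of which matched on both strands, and Vcam1 at 2 positions. The pattern is found in 15.4% of 33469 rat promoter windows of the same length.
Icam1, chr8:27829595-27829844, plus strand: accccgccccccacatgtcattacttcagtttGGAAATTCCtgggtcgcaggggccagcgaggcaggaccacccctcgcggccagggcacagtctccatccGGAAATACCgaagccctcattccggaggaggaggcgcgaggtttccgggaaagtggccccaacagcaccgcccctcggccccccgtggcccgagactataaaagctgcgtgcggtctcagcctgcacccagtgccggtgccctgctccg
Vcam1, chr2:206742784-206743033, minus strand: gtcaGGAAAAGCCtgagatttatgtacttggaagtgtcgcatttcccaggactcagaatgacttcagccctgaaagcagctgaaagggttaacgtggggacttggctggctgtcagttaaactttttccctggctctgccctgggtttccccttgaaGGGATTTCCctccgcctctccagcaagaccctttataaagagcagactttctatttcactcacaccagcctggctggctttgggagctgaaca
Cd9 and Cd24 are the pair above background in liver whose usable spots were brighter in every line than in liver. Cd44 was also brighter in every usable line, but its liver spot was near background. The capitals of Cd9 and Cd24 mark GGGCGG on either strand, the GC box that Sp1 binds. Each of these windows held 3 matches, and 30.5% of all windows held at least 1. The same letters stood 4 times in the window of Epcam and 2 times each in those of Cd47 and Icam1, so they do not set Cd9 and Cd24 apart. No match was found in Cd44, Alcam, Vcam1 and Ceacam1.
Cd9, chr4:159975359-159975608, minus strand: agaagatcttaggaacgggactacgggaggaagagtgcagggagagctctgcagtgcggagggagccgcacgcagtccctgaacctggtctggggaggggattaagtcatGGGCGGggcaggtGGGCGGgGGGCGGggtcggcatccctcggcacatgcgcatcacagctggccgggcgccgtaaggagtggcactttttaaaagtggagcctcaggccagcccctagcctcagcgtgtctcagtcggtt
Cd24, chr20:48656227-48656476, plus strand: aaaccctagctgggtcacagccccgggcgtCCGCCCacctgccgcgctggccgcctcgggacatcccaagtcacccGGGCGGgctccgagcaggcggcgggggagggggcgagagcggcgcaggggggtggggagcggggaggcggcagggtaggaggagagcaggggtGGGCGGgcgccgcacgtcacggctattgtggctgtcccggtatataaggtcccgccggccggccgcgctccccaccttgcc
The TATA box letters TATAAA, searched on both strands and held by 12.9% of all windows, lay 53 bases before the start in Icam1 and 60 bases before it in Vcam1. A second match in Vcam1, on the other strand, lay 62 bases before the start and overlapped the first. No TATAAA was found in the windows of Cd9 and Cd24. These matches describe letters in a window, and binding was not measured.

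Signals below are the scanner's intensities after quantile normalisation between the arrays, in array units, floored at 2.53, which is the median of spots that the scanner software called near background. The scanner software called 32.7% to 39.2% of discovery probes above background in the lines and 30.6% in liver. Of the 65 spots of the member probes, 8 were called irregular and not used, 4 of them on the N1 array, 1 each on C5F and C6, 2 on liver and 0 on L2. The irregular spots touched Cd44, Alcam, Epcam, Cd9 and 2 probes of Icam1, and what they read when kept is given beside those genes. Of the 13 probes, 11 passed the filter on dim probes, which asked for an above-background spot in at least 2 lines or in liver. The dimmer Vcam1 probe and Epcam passed only through liver. The hepatocyte markers Alb and Cps1 were near background in all 4 lines, and Ttr and Tf were above background only in C5F among them. The hepatocyte factor Hnf4a was above background in every line, and the ductular keratin Krt19 in L2, C5F and C6, where its spots were usable.

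**Figure D1:**
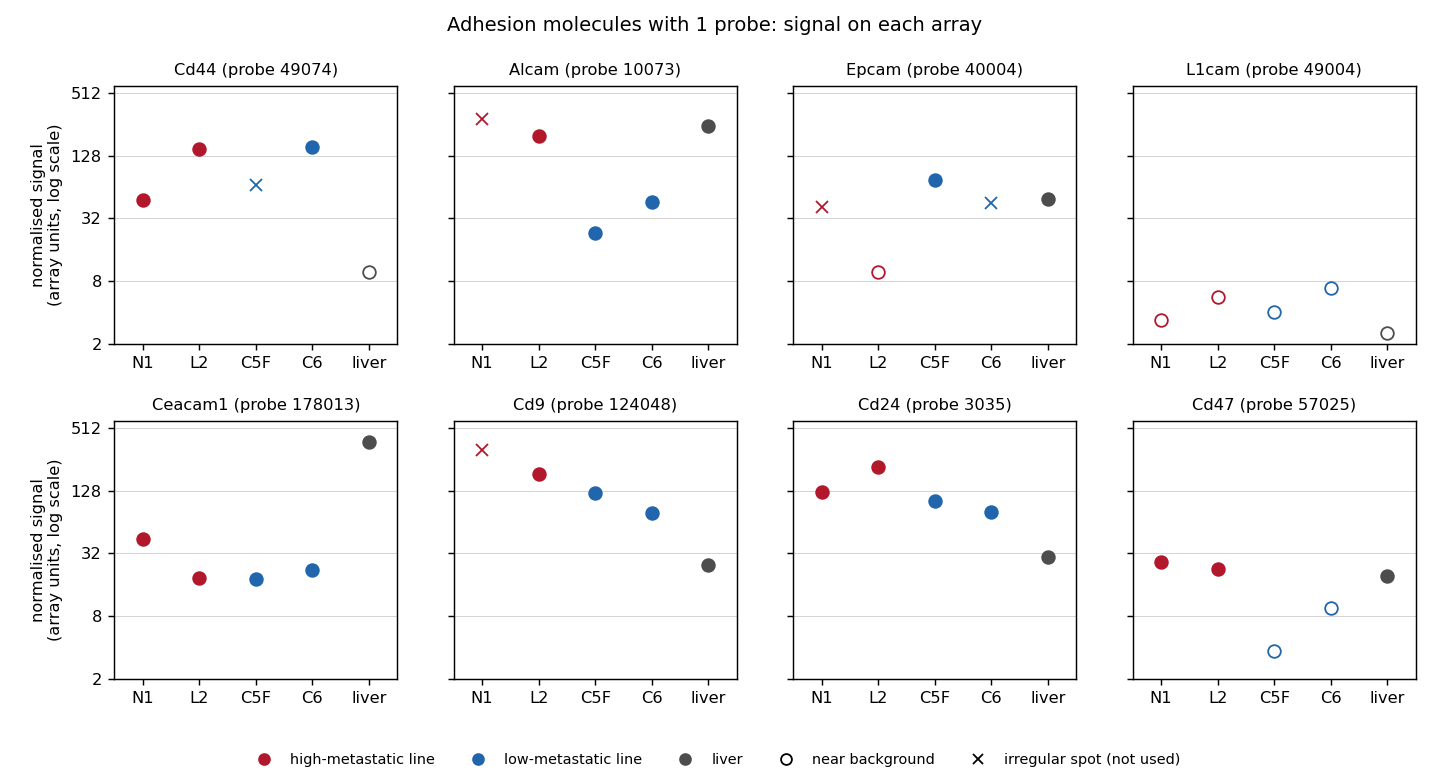
Normalised signal (array units, log scale) of the 8 adhesion molecules with 1 probe on each array: high-metastatic lines N1 and L2, low-metastatic lines C5F and C6, and liver. Filled circles are above background, open circles near background, and crosses are irregular spots, which were not used; Ceacam1 is brightest in liver at 377, and Cd24 is dimmest there at 29.6.

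The comparison of the 4 lines with liver asks what the carcinoma lines carry that the tissue does not. Ceacam1 was lower in the lines, and no member was called higher. A probe that passed the filter through liver alone, such as the dimmer Vcam1 probe, or through the lines alone, such as Cd44, had to differ, so counts are given over the 6 member probes above background in liver and in at least 2 lines. Of these 6, 1 was called lower, where 4.76% of 7001 such probes were, and 0 were called higher, where 4.06% were (limma, adjusted p under 0.05). Over all 11949 tested probes, 9.38% were called lower and 9.01% higher. At an unadjusted p under 0.05 there were 3 of the 6, namely Cd9, Cd24 and Ceacam1, where 26.1% of such probes passed. The median log2 difference was −0.50 over the 6 member probes and −0.044 over all such probes. With 4 arrays against 1, an exact permutation test cannot give a p below 0.2, so each p rests on the spread within the classes standing for that of liver. In bulk RNA, fewer cells of a type and less RNA per cell cannot be told apart.

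Ceacam1 had a signal of 43.6 in N1, 18.5 in L2, 18.0 in C5F and 22.0 in C6, against 377 in liver. All 4 lines lay far below liver, and N1 lay 1.98-fold to 2.42-fold above the other 3 lines. Liver was 8.67-fold brighter than N1 and 21.0-fold brighter than C5F. The log2 difference from liver was −3.99 ± 0.57 (SE, 4 lines and 1 liver, adjusted p = 0.0332). The call was lost without C5F (adjusted p = 0.115) and without C6 (adjusted p = 0.116), and with no filter on dim probes (adjusted p = 0.0918).

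Vcam1, which captures leukocytes on inflamed endothelium, had signals near background on its dimmer probe in all 4 lines, at the floor of 2.53 in N1, L2 and C5F and at 4.24 in C6, against 19.5, above background, in liver. The lines were thus at least 1.81-fold dimmer than liver, and no test of this probe is given, since it entered only through its liver spot. The brighter Vcam1 probe read 34.5 in N1, 27.7 in L2, 30.6 in C5F and 27.0 in C6, against 36.5 in liver. Its lines all lay slightly below liver, by 1.06-fold to 1.35-fold, except that C5F lay 0.081 above liver on the log2 scale when arrays were scaled to the median of probes above background. The log2 difference of −0.29 ± 0.25 did not pass the test (adjusted p = 0.444). The probes therefore placed Vcam1 near background in the lines and nearly level with liver, on the same arrays.

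Cd24, a small mucin-like protein anchored by a lipid, had a signal of 124 in N1, 215 in L2, 101 in C5F and 80.0 in C6, against 29.6 in liver. All 4 lines lay above liver, by 2.70-fold in C6 up to 7.27-fold in L2. The log2 difference of 2.03 ± 0.41 did not pass the test (adjusted p = 0.0559), and it passed when each array was scaled to its 75th percentile (adjusted p = 0.0415). Of 4 member probes above background in liver and at least 2 lines and usable on all arrays, Cd24 alone had every line above liver, where 27.8% of all such probes did. The lines were all below liver for Ceacam1 and the brighter Vcam1 probe, 2 of the 4, where 37.4% of all such probes were.

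Cd9, a tetraspanin that gathers integrins and growth factor ligands into membrane patches, had a signal of 185 in L2, 122 in C5F and 78.7 in C6, against 24.9 in liver. Liver lay below each usable line, which were 3.16-fold to 7.44-fold brighter. The log2 difference was 2.43 ± 0.41 (adjusted p = 0.0678), without a usable spot in N1. The irregular N1 spot read 315, the highest of the 5 arrays, and keeping irregular spots gave 2.64 ± 0.45 (adjusted p = 0.0415).

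Cd44 had a signal of 48.3 in N1, 149 in L2 and 155 in C6, while the liver spot was near background at 9.69. The lines were at least 7.09-fold brighter than liver, and the bound for single lines was 3.31-fold in N1, 10.2-fold in L2 and 10.6-fold in C6. No test of it is given, since it passed the filter through the lines alone. The irregular C5F spot read 66.5, between N1 and the other lines.

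Alcam, which binds itself and the leukocyte receptor Cd6, had a signal of 199 in L2, 23.1 in C5F and 45.5 in C6, against 245 in liver. Liver was 10.6-fold brighter than C5F and 5.37-fold brighter than C6, but only 1.23-fold brighter than L2. Over the lines the log2 difference was −1.61 ± 0.57 (adjusted p = 0.180). Cd47 differed from liver by −0.70 ± 0.62 on the log2 scale (adjusted p = 0.460). Its high-metastatic lines stood slightly above liver and its low-metastatic lines below it.

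Epcam had 3 usable spots and no test, with a signal of 9.75, near background, in L2, and 73.9 in C5F, against 48.7 in liver. C5F was 1.52-fold brighter than liver, and L2 was at least 4.36-fold dimmer than liver. The irregular spots read 41.0 in N1 and 45.2 in C6, so that when all spots were kept only L2 lay far from liver. L1cam, a molecule of growing axons that some carcinomas switch on, was near background on all 5 arrays, with signals from 3.36 in N1 to 6.88 in C6 in the lines, and at the floor of 2.53 in liver. No level of L1cam could be ordered at these signals.

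**Figure D2:**
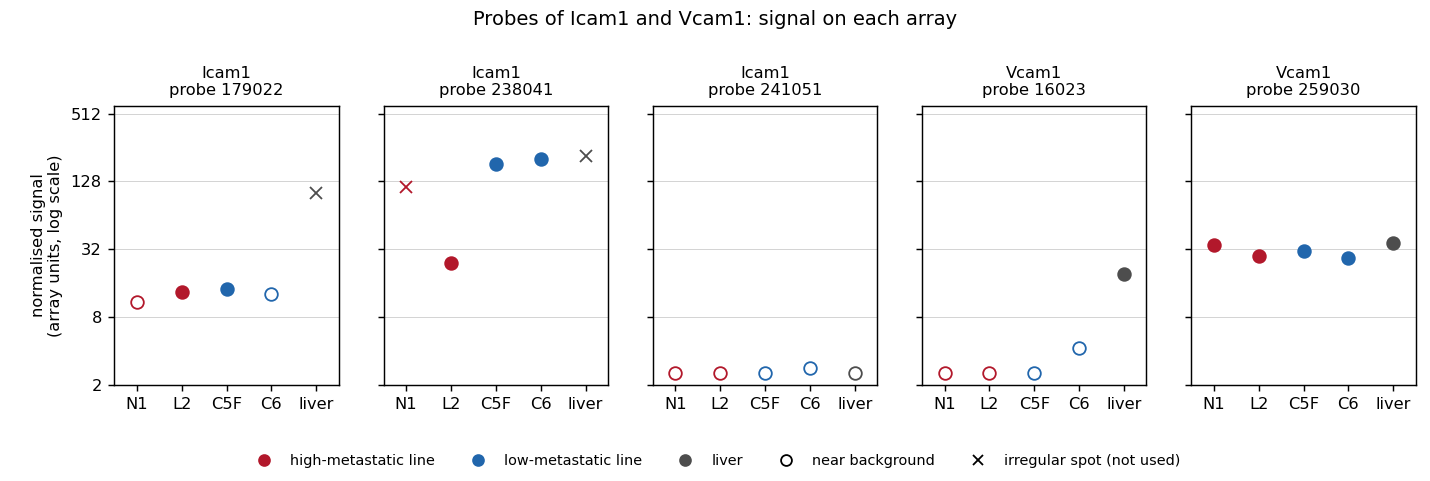
Normalised signal (array units, log scale) of the 3 Icam1 and 2 Vcam1 probes on each array, high-metastatic lines first, then low-metastatic lines and liver. Filled circles are above background, open circles near background, and crosses irregular spots, which were not used; the panels of 1 gene do not show the same pattern, and Icam1 probe 241051 is near background throughout.

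Icam1, the endothelial and epithelial partner of leukocyte integrins, gave a different picture on each of its probes. Probe 238041 read 23.9 in L2, against 184 in C5F and 201 in C6, and its spots in N1 and liver were irregular. C5F and C6 differed by 1.09-fold, while L2 lay 7.70-fold below C5F and 8.41-fold below C6. Probe 179022 read 10.8, near background, in N1 and 13.3 in L2, against 14.2 in C5F and 12.9, near background, in C6, so that all 4 lines lay close together. There C5F was 1.07-fold brighter than L2. Probe 241051 was near background on all 5 arrays, at the floor in N1, L2, C5F and liver and at 2.80 in C6. With irregular spots kept, probe 179022 read 99.9 in liver and probe 238041 read 114 in N1 and 215 in liver. On those values the lines differed from liver by −2.97 ± 0.26 on the log2 scale with probe 179022 (adjusted p = 0.0160) and by −1.07 ± 0.94 with probe 238041 (adjusted p = 0.458). Whether the probes detect different transcripts of the gene was not tested.

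Setting the high-metastatic against the low-metastatic lines asks which molecules go with metastatic ability. Alcam and Cd47 had the largest positive differences and Icam1 probe 238041 the largest negative one, but no member passed the test. In limma 0 of 10 member probes were called higher or lower, as were 0% of all 13741 tested probes in either direction. At an unadjusted p under 0.05 there were 3 of 10 member probes (Alcam, Icam1 probe 238041 and Cd47), where 7.31% of all tested probes passed. Adjusted p-values of the members ran from 0.633 to 0.917. Of the 9 probes with a line above background, 6 pointed higher and 3 lower in the high-metastatic lines. Their median log2 difference was 0.51, where that of all such probes was −0.0070. With 2 lines against 2, an exact permutation test cannot give a p below 0.333.

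Cd47 had a signal of 26.3 in N1 and 22.4 in L2, both above background, against 3.69 in C5F and 9.52 in C6, both near background. The classes did not overlap, and the high-metastatic lines were at least 2.52-fold brighter. The fitted log2 difference was 2.03 ± 0.55 (SE, n = 2 lines per class, adjusted p = 0.670), and it ran from 1.42 without C5F to 2.70 without C6. The liver signal of 19.5 fell between the classes. N1 was 1.35-fold and L2 1.15-fold brighter than liver, while C5F was at least 2.48-fold and C6 at least 1.66-fold dimmer than liver. This order, with the high-metastatic lines above liver and the low-metastatic lines below it, held for 1.46% of 8442 probes usable on all arrays. Those probes include some near background in liver, unlike Cd47, so the share is not one over probes like it.

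Alcam in L2 was 8.59-fold brighter than in C5F and 4.36-fold brighter than in C6. The log2 difference was 2.61 ± 0.59 from 1 high-metastatic line and 2 low-metastatic lines (adjusted p = 0.670). The irregular N1 spot read 291, and with irregular spots kept the difference was 2.91 ± 0.46 (adjusted p = 0.656). On those values N1 and L2 both lay above C5F and C6.

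Cd24 was brighter in both high-metastatic lines than in both low-metastatic lines, with a log2 difference of 0.86 ± 0.37 (adjusted p = 0.713). It was 0.48 without L2 and 1.25 without N1. Of 5 member probes usable in all 4 lines with at least 1 line above background, Cd24 and Cd47 had both high-metastatic lines on top, where 18.2% of 8412 such probes did. None of the 5 had both at the bottom, where 20.3% of such probes did. Cd9 differed by 0.92 ± 0.43 (adjusted p = 0.750) and, with the irregular N1 spot kept, by 1.26 ± 0.40 (adjusted p = 0.662).

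Icam1 probe 238041 differed by −3.01 ± 0.26 between the classes (adjusted p = 0.633), with L2 as the only usable high-metastatic line. With irregular spots kept the difference was −1.87 ± 0.84, since N1 stood nearer to the low-metastatic lines than to L2. Probe 179022 differed by −0.17 ± 0.21 (adjusted p = 0.855). Cd44 differed by −0.86 ± 0.93 (adjusted p = 0.842), since N1 was 3.08-fold dimmer than L2 and 3.20-fold dimmer than C6, while C6 and L2 differed by 1.04-fold. For Epcam, with 1 usable line in each class, L2 was dimmer than C5F by at least 6.61-fold. Ceacam1 differed by 0.51 ± 0.51, which turned to −0.10 without N1, and the brighter Vcam1 probe by 0.10 ± 0.22, which turned to −0.059 without N1. The dimmer Vcam1 probe was near background in all 4 lines and has no order there.

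**Figure D3:**
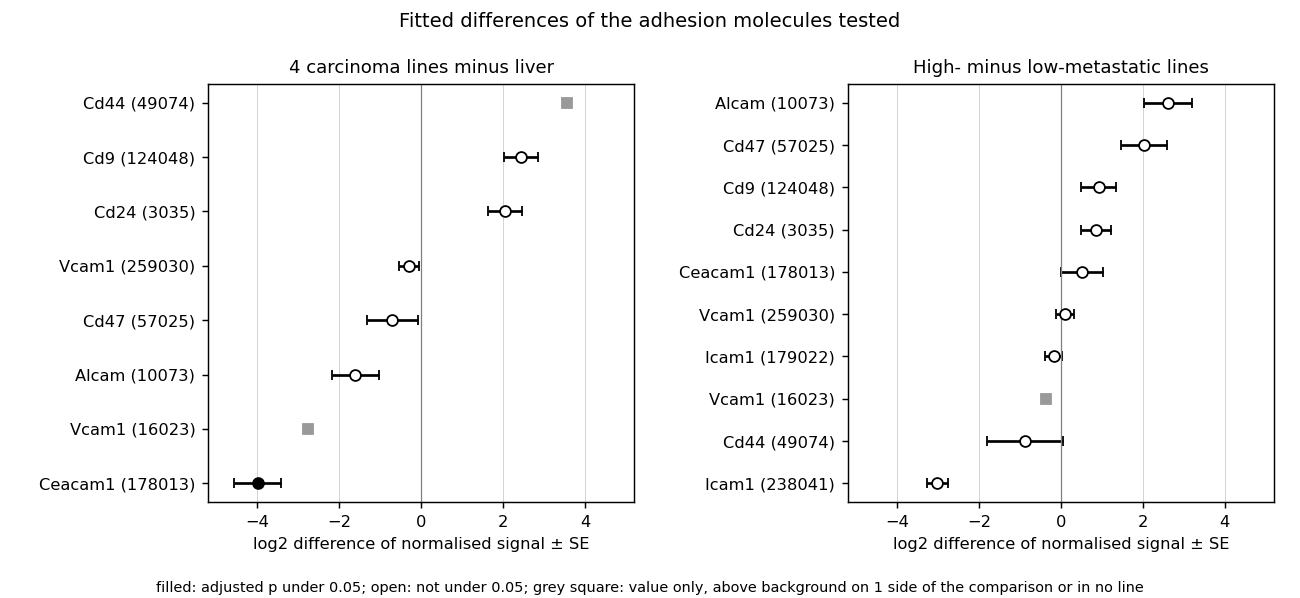
Fitted log2 differences with their standard errors for the 4 lines minus liver (left, 8 probes) and for high- minus low-metastatic lines (right, 10 probes), with probe numbers in brackets. Filled points had an adjusted p under 0.05, which Ceacam1 reached against liver at −3.99, open points did not, and grey squares show values without a test, for probes above background on 1 side of the comparison or in no line.

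The order of the lines was not the same for the members. L2 was the brightest line for Cd24, and among usable spots for Alcam and Cd9, but the dimmest for Icam1 probe 238041 and near background for Epcam. N1 was the brightest line for Ceacam1 and the dimmest usable line for Cd44, where L2 and C6 were nearly level. C5F and C6 were dimmest for Cd47 and Alcam and nearly level for Icam1 probe 238041. Levels of different probes were not set against each other, because a probe's brightness depends on its sequence.

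Of genes whose profile over the 5 arrays was nearest to a member's, by the smallest root mean square difference of centred log2 signals, Ugt2b35, a glucuronosyltransferase, lay 0.10 from Ceacam1 (r = 0.998). Mup5, a major urinary protein, lay 0.19 from it. Nearest to Cd24 were Zbtb12 at 0.14 and Csmd1 at 0.15, and nearest to Cd47 were Prdm1 at 0.28 and Rgs14 at 0.31. The brighter Vcam1 probe, which is nearly flat, had 3289 of 8442 probes within 0.5, and Paox and Dph6 were nearest at 0.049 and 0.055. Within 0.5 there were 121 probes for Ceacam1, 368 for Cd24 and 27 for Cd47. Such likeness over 5 arrays describes these samples only.

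Ligands and counter-receptors of the members were read from a list of 23 genes, of which 20 were found. Against liver 3 of 9 tested genes fell and 0 rose, with a median log2 difference of −0.86. For this list and those below, 9.38% of all 11949 tested probes were called lower and 9.01% higher, with a median of 0.15. The list counts and medians include genes that passed the filter through 1 side alone. Itgal and Itgb2, the chains of the leukocyte integrin that binds Icam1, were near background in all 4 lines and above background in liver, and the lines were at least 24.2-fold and 8.45-fold dimmer. Itga4, a chain of the integrin that binds Vcam1, was at least 1.89-fold dimmer. All 3 passed the filter through liver alone and so had to differ. Of the partners of Itga4, Itgb1 was above background only in L2 and C5F, and Itgb7 was above background in every line and near it in liver. Itgb7 read 41.4 in N1, 57.5 in L2, 89.4 in C5F and 27.7 in C6, against 12.4 in liver, and was at least 3.37-fold brighter in the lines. Sirpa, the phagocyte receptor for Cd47, read 89.3 in liver and 10.8 in C5F. It was near background in N1 and L2, with no usable spot in C6. Since it passed the filter through liver alone, no test of it is given. The osteopontin gene Spp1 and the hyaluronan synthases Has1 and Has2 were near background on all arrays. The third synthase, Has3, was above background wherever usable, with a signal of 136 in N1 and 113 in C5F, against 285 in liver. Itga4, Itgb1, Itgb7, Spp1 and the synthases are named after their values were seen. Between the classes 0 of 11 genes passed, and the largest difference was that of Siglec10, a receptor of Cd24, with −1.97 ± 0.58 (adjusted p = 0.670) and near background in N1 and L2.

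Tetraspanins and their partners, the family of Cd9, were found for 14 of 16 listed genes. Of 7 tested against liver 2 rose and 0 fell, and the median log2 difference was 1.93. That median is the value of Tspan6, which was near background in liver, as were Tspan8 and Tspan14. Those genes passed the filter through the lines alone and so had to point higher. The tested genes above background in liver went both ways, with Tspan3 and Cd63 higher in the lines and Cd81 and Tspan31 lower. Tspan6, Tspan14 and Tspan31 are named after their values were seen. Tspan3 differed by 2.57 ± 0.26 (adjusted p = 0.0188) and Cd63, a tetraspanin of late endosomes and lysosomes, by 2.27 ± 0.21 (adjusted p = 0.0172). Tspan8 was near background in liver and at least 4.35-fold brighter in the lines, with log2 signals of 8.73 in N1, 3.79 in L2, 6.69 in C5F and 4.75 in C6. The lines thus spread widely, and Tspan8 has no test here, since it passed the filter through the lines alone. Cd81, a close relative of Cd9, which for this comparison is named after its values were seen, differed from liver by −0.84 on the log2 scale (adjusted p = 0.288). Between the classes 0 of 11 passed.

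Among other immunoglobulin superfamily adhesion molecules, 21 of 30 listed genes were found. Against liver 3 of 13 tested genes fell and 0 rose, with a median log2 difference of −0.33. Icam5 was at least 6.67-fold dimmer in the lines and passed the filter through liver alone. Cxadr, the adenovirus receptor of epithelial junctions, fell by 3.49 on the log2 scale (adjusted p = 0.00939), and Thy1 fell by 1.92 (adjusted p = 0.0218). Pvr, a nectin-like receptor, was near background in liver and at least 2.13-fold brighter in the lines. No test of it is given, since it passed the filter through the lines alone. Between the classes 0 of 15 passed, and Bcam, a laminin receptor, had the largest difference of 2.26 ± 0.46 (adjusted p = 0.670), without a usable spot in L2.

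Cytoplasmic linkers and membrane partners of such molecules were found for 13 of 14 genes. Of these, 0 of 5 passed against liver and 0 of 9 between the classes. Gnai2, a G protein subunit, had the largest difference from liver, 1.46 ± 0.70 (adjusted p = 0.261). It also had the largest between the classes, 1.56 ± 0.73, with L2 as the only usable high-metastatic line. Msn, moesin, which binds the tail of Cd44, differed from liver by 1.02 ± 0.30 (adjusted p = 0.138). Ezr, ezrin, differed by 0.58 ± 0.32 between the classes, with N1 as the only usable high-metastatic line. Of sheddases and intramembrane proteases, which release the outer parts of Cd44, Alcam and L1cam, 11 of 14 were found. Against liver 1 of 5 fell and 0 rose, namely Psen2, a presenilin, by 1.66 on the log2 scale (adjusted p = 0.0318). Adam15 differed by 1.16 ± 0.48 (adjusted p = 0.182), and Adam17, named after its values were seen, was near background on all arrays. Between the classes 0 of 6 passed.

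The NF-kB list, which holds the pathway known to drive Icam1 and Vcam1 and its early targets, had 18 of 21 genes found. Against liver 0 of 12 rose or fell, with a median log2 difference of −0.017. Between the classes 0 of 13 passed, 9 pointed lower and 4 higher in the high-metastatic lines, and the median was −0.40. Of all 13741 probes tested between the classes, 50.0% pointed higher, with a median of 0. Sod2, a mitochondrial superoxide dismutase, differed by −1.94 ± 0.40 (adjusted p = 0.670), and like Icam1 probe 238041 it had L2 as the only usable high-metastatic line. The chemokine Cxcl1 differed by −1.26 ± 0.86 (adjusted p = 0.792). Ccl2, another chemokine, stood 1.70 ± 0.24 above liver on the log2 scale without passing the test (adjusted p = 0.0558). The inhibitor Nfkbia, also named after its values were seen, had log2 signals of 9.04 in N1, 8.89 in L2, 7.72 in C5F and 9.22 in C6, against 8.41 in liver. Of Wnt targets and progenitor markers, 11 of 13 were found, and against liver 1 of 8 rose and 2 fell, with a median log2 difference of −0.92. The gene counted as risen was Myc, which was near background in L2 and liver and is named after its values were seen. It passed the filter through the lines alone and so had to differ, and no "at least" fold could be set for it. Prom1, at least 2.73-fold dimmer in the lines and let through the filter by liver alone, and Thy1 fell. Between the classes 0 of 9 passed.

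The summed signals of leukocyte, endothelial, stellate, hepatocyte and cholangiocyte markers were highest in liver. Single cholangiocyte markers did not all go one way. The part of these cell types in the members' differences from liver was not tested. Of 14 Kupffer cell and leukocyte markers 13 were found. They were above background for 4 of 12 usable genes in N1, 4 of 12 in L2, 3 of 12 in C5F and 4 of 12 in C6, against 10 of 12 in liver. The summed signal of the 10 markers usable on all arrays was 74.4 to 103 in the lines and 5174 in liver. C1qa, C1qb, Csf1r and Cd74 were near background in every line. Clec4f was above background in every line, at 20.6 to 25.2, against 2087 in liver. Cd68 was above background in N1 and C6, at 22.0 and 32.7, against 611 in liver. Cd163 was so in L2 and C5F. Cd3e, Cd79b and Cd14 were not usable on all arrays and are outside that sum. Cd3e and Cd79b were above background in every usable line. Cd14 was near background in C5F and irregular in N1, L2 and C6. Its irregular spots read 311, 116 and 145 before normalisation, against 282 in liver. Of sinusoidal endothelial markers 7 of 10 were found. Their sum over 6 genes was 20.9 to 44.8 in the lines and 694 in liver. Stab2, Lyve1 and Kdr were near background in every line. Pecam1, irregular in liver and outside that sum, was above background in every line, at 16.3 to 21.1. Among the lines, Stab1 and Vwf were above background only in C5F, at 18.9 and 15.0, against 175 and 108 in liver. Of stellate cell and fibroblast markers 8 of 10 were found. Their sum over 6 genes was 15.7 to 25.6 in the lines and 127 in liver. Pdgfrb and Dcn were near background in every line, and Lrat and Acta2 on all arrays. Col1a1 and Reln were not usable on all arrays and are outside that sum. Col1a1 read 180 in N1 and 137 in C5F, against 188 in liver. Reln read 37.9 in C6 and was near background in N1, against 273 in liver. Of cholangiocyte markers 6 of 9 were found. Their sum over 4 genes, without Krt19 and Slc4a2, was 44.3 to 89.5 in the lines and 187 in liver. Tff3 was highest among the lines in C5F, at 81.2, against 176 in liver. Slc4a2 was brighter in the lines, at 261 in N1, 270 in L2 and 203 in C5F, against 150 in liver. Krt19 read 563 in L2, 2213 in C5F and 1376 in C6, and its spots in N1 and liver were not usable. Sox9, Spp1 and Aqp1 were near background on all arrays. Hepatocyte markers, all 12 found, summed over 9 genes to 75.9 in N1, 59.7 in L2, 2340 in C5F and 68.1 in C6, against 43490 in liver.

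**Figure D4:**
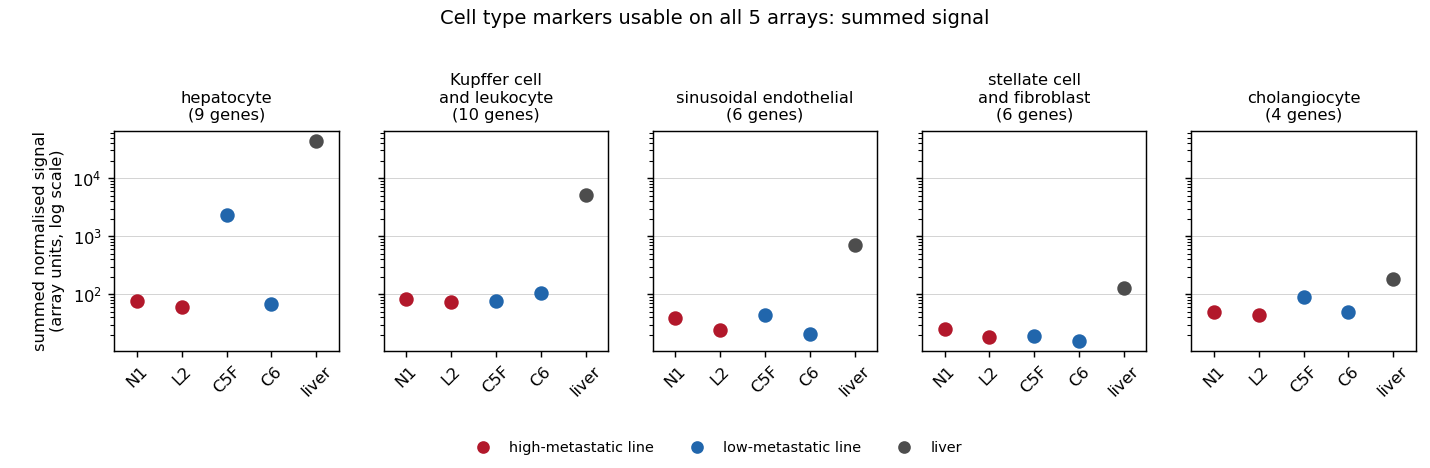
Summed normalised signal (array units, log scale) of cell type markers usable on all 5 arrays, for the lines N1, L2, C5F and C6 and for liver. The sinusoidal endothelial sum is 20.9 to 44.8 in the lines and 694 in liver. The cholangiocyte sum leaves out Krt19 and Slc4a2, which were not usable on every array and were bright in the lines. Other sums also leave out genes not usable on every array, among them Cd14, Cd3e and Cd79b (leukocyte), Pecam1 (endothelial) and Col1a1 and Reln (stellate).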

How the data were processed

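Each sample was hybridised to a CodeLink slide of its own. The authors used CodeLink Expression Analysis 4.1.0.29054, per the file headers. Its deposited output lists, for every spot, the background-subtracted raw intensity and that intensity over the array's median, which the deposited series matrix repeats (largest difference 0).

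The raw values were used without control spots. Irregular, contaminated and masked spots counted as missing, and the rest was quantile normalised with limma 3.58.1 in R 4.3.3, floored at 2.53 and taken to log2. The filter on dim probes left 16377. Symbols came from the platform annotation, updated through Entrez numbers in a RefSeq table (GRCr8). Of 12202 such numbers 12178 matched. A single gene was given for 16753 discovery probes, several for 165 and none for 16931. For list genes the probe with the highest mean signal was used.

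One limma model with the groups high-metastatic, low-metastatic and liver was fitted to all 5 arrays (2 residual degrees of freedom at most, prior 1.46), two-sided, with Benjamini-Hochberg adjustment over all tested probes and a threshold of 0.05. A probe needed at least 1 residual degree of freedom. An "at least" fold uses, on each array near background, the higher of the probe's own signal and the lowest signal called above background there. The procedure was tested on simulated data. The members and the gene lists (181 genes beside the members, 149 found) were chosen with earlier results of these data known. Named list genes were up to 3 per list and contrast with the largest difference among genes above background on every usable array of the brighter group, the cell type markers set beside a result, and for each member the 2 genes nearest in profile. List genes outside that rule are marked in the text. Nothing in the labels says how the cultures were replicated, so p-values measure the spread between lines of a class. The number of arrays limits the precision. Alternatives were 3 other scalings, an offset of 50, irregular spots kept, no filter and each line left out in turn.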

Additional observations from a re-analysis of the deposited data

Results flagged for a closer look

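Cd47 had both high-metastatic lines above the liver and both low-metastatic lines below it, and it was 1 of 61 probes of the members and lists, usable on all arrays and above background in liver, that moved this way. The classes differed by 2.03 on the log2 scale. Both are set against the same liver array, so the test of this difference is that of the classes themselves, which it did not pass (limma adjusted p = 0.670).

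Of 38 probes of the members and lists with all 4 lines above background, Cntn1, an adhesion molecule of the immunoglobulin superfamily, had a line far from the others. N1 had a log2 signal of 7.87, against 7.23 to 7.32 in the other lines, a gap of 0.859 of the whole range. Chance marks about 1 gene in 20 in this way.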

How the results depend on the processing

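Against liver, 1077 probes were called higher and 1121 lower (49.0% higher), 2198 in all. With an offset of 50 these were 621 and 1312 (32.1% higher), with irregular spots kept 1850 and 1485, 3335 in all, and with no filter 623 and 1725 (26.5% higher). Leaving out each line gave 0 to 132 higher, 0 to 485 lower and 0 to 617 in all, with 0 without C5F and without C6. Between the classes the count was 0 under every alternative run, with 758 to 2456 probes at an unadjusted p under 0.05 under the settings that keep all lines and 473 to 1179 without a line. Scaling to the median of probes above background moved the median of all tested probes from 0.15 to 0.29 against liver and from 0 to −0.12 between the classes. Among the members' fitted differences 3 changed sign: the class difference of the dimmer Vcam1 probe was 0.0055 with the offset, and without N1 those of the brighter Vcam1 probe and Ceacam1 were −0.059 and −0.10, within a leave-one-out range of −0.059 to 0.27 and of −0.10 to 1.13. Read over probes above background in liver and at least 2 lines, an alternative chosen after seeing the data, the counts against liver were 284 higher and 333 lower, 617 in all. Cd24 and Cd9 passed against liver under 1 alternative each, and Ceacam1 lost its call under the 3 named above. A slide term could not be fitted because each slide held 1 array. No paired analysis was possible because GEO gives these samples no replicate numbers, and the numbers assigned here only name them. Irregular spots and near-background signals limit Epcam, L1cam and Icam1.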
